A study of Bos taurus with 16 samples.

Results

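The genes of the ubiquitin-proteasome system described here were 52 of the 27607 Ensembl gene IDs counted in calf liver and skeletal muscle. Members were the IDs that the gene tables of the study pair with a symbol starting PSMA, PSMB, PSMC, PSMD, PSME or PSMG (20 proteasome members) or UBE2, UBE3, USP, FBXO or FBXW (32 ubiquitin members). The tables name 4181 of the IDs and list genes picked from these same libraries for a difference with embryo origin. Of the proteasome members, 17 were named by liver expression tables only, 1 by muscle tables only and 2 by both. Of the ubiquitin members, 20 were named by liver expression tables only, 5 by muscle tables only, 6 by both and 1 (USP25) by a methylation table only. The tables were held in part, and no name came from the study's list of genes that differ in expression in muscle. Counts, medians, mean levels and test results of members for embryo origin are therefore descriptions and not independent evidence, above all in liver. The RefSeq gene table of cattle lists 49 and 132 protein-coding symbols with the same starts, so the members cover 20 and 32 of these.

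Proteins are marked for degradation by chains of the small protein ubiquitin. An activating enzyme (E1) passes ubiquitin to a conjugating enzyme (E2, the UBE2 genes), and a ligase (E3, such as the UBE3 genes) transfers it to the substrate, while F-box proteins (FBXO and FBXW) choose substrates for cullin-based ligases and deubiquitinases (USP) take ubiquitin off again. The proteasome reads the chains with its 19S regulatory particle (PSMC and PSMD) and cuts the unfolded protein inside the barrel-shaped 20S core (PSMA and PSMB), helped by activators (PSME) and assembly chaperones (PSMG). In liver the system turns over enzymes and secretory proteins, and in skeletal muscle it degrades myofibrillar protein during atrophy.

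Liver and semitendinosus muscle were taken from 8 male Holstein calves, of which 4 came from in vitro production of embryos (IVP, after mild ovarian stimulation, oocyte collection through the vagina, and fertilization and culture without serum) and 4 from embryos made in vivo by multiple ovulation and embryo transfer (MOET). All embryos were carried by recipients, and all calves were raised in 1 herd and euthanized at 98 to 104 days of age, with the exception of MOET calf 3213, which was 144 days old. The 4 IVP calves had 1 dam and the 4 MOET calves had 2, and only 2 calves of each group shared both dam and sire, so embryo origin and parentage cannot be told apart in most of the comparison. The question was whether the origin of the embryo is associated with expression of these genes in either organ 3 months after birth.

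Polyadenylated RNA of each organ and calf gave 16 libraries, with 22758137 to 24667728 counts in liver and 23677247 to 25626474 in muscle. The methods of the study control for age with sva, and whether the deposited counts carry that adjustment is not given in the sources used here. Calf 3213 lay closer to the mean of the other MOET calves than counting noise would put it (median absolute log2 deviation of 0.0117 against 0.0379 in liver and of 0.0201 against 0.0416 in muscle). Means ± SD were therefore taken over 4 IVP and 3 MOET calves, while calf 3213 stayed in the fits as a replicate of its own. The labelled tissues carried their markers: 5 of 10 muscle fibre markers could be named and summed to 142000 CPM (counts scaled to a common library size) or more in every muscle library and to at most 0.74 CPM in liver, and 4 of 8 hepatocyte markers summed to 5370 CPM or more in liver and to at most 48.6 CPM in muscle. These are bulk tissues, so fewer cells of a type and less RNA per cell cannot be told apart.

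In liver, the proteasome members were higher in the IVP calves, and the ubiquitin members were split by role. Of 20 proteasome members 19 had a positive log2 fold change (IVP against MOET), with a median of 0.66, which included all 18 that encode a subunit, activator or chaperone. Of 32 ubiquitin members 13 were higher and 19 lower, with a median of -0.25. The median over all 14290 genes tested was -0.004. None of the 52 members had a false discovery rate (FDR) under 0.05 in edgeR's quasi-likelihood test with an age term, where the lowest FDR of a member was 0.125 and 0.035% of all genes tested were called. With an unadjusted p under 0.05 there were 39 members, 25 higher and 14 lower, against 29.8% of all genes tested.

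By other tests of the same liver libraries more members passed an FDR of 0.05. DESeq2's Wald test with the age term called 13 members (6 proteasome, 7 ubiquitin), and without it 42 (19 and 23). Without an age term edgeR called 33 members (17 and 16). Each of these settings also called more of all genes, with 11.0%, 32.6% and 21.0% of those tested. Without calf 3213 and without the age term edgeR called 0 members, against 0.0347% of all genes. Over the 15 alternatives run in liver, 2 of the 52 members changed sign in at least 1, USP2 and USP47.

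**Figure D1:**
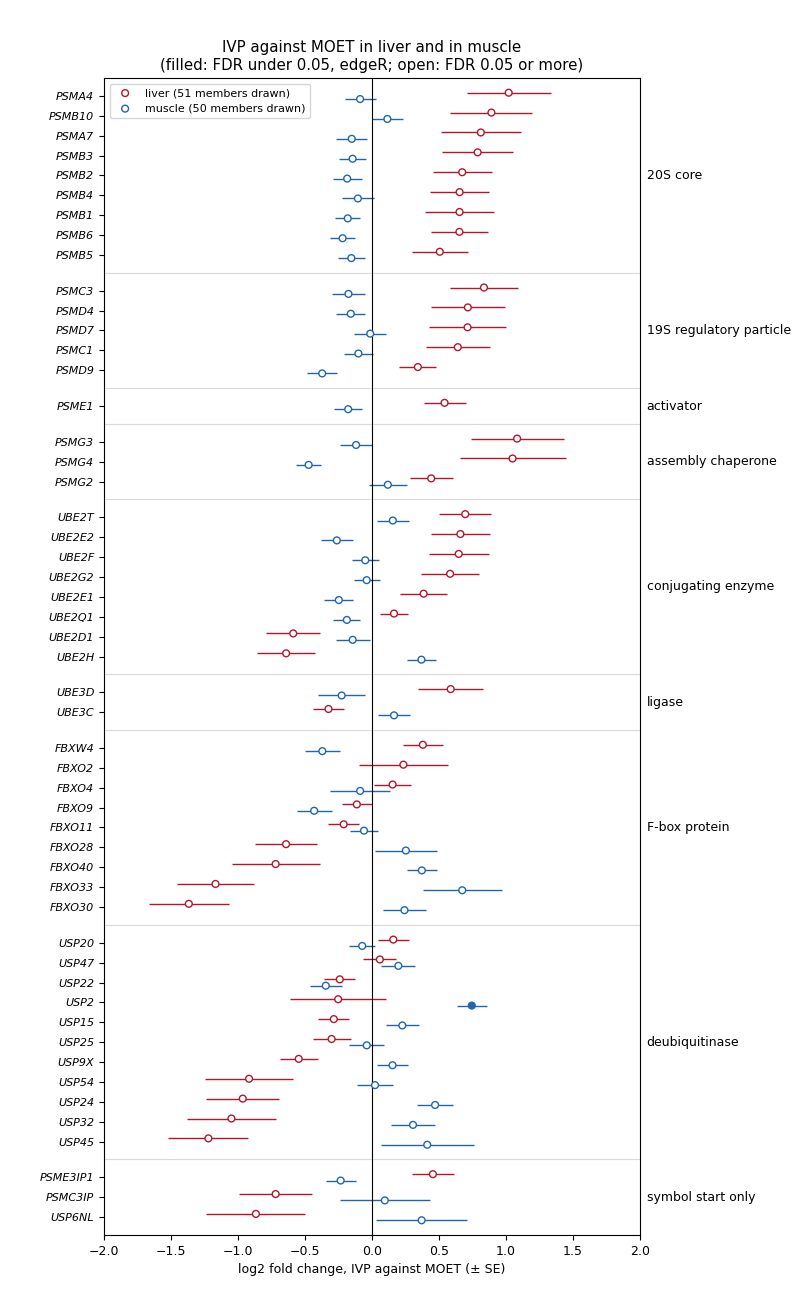
Log2 fold change (± SE) of IVP against MOET calves for 51 of the 52 members, by role, in liver (red) and in muscle (blue), from edgeR. In liver all members of the 20S core, 19S particle, activator and assembly chaperones lie right of 0 and most deubiquitinases lie left of it, while in muscle only USP2 has an FDR under 0.05.

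Subunits of the 20S core were higher in the IVP livers in 9 of 9 cases, with log2 fold changes of 0.51 (PSMB5, the chymotrypsin-like site) to 1.02 (PSMA4). Values are given in the order of calves 3208, 3209, 5833 and 5841 for IVP and 3213, 3217, 3218 and 5932 for MOET. PSMA4, a subunit of the outer ring, was at 34.2, 39.6, 39.3 and 83.9 CPM in the IVP livers and at 22.2, 20.3, 26.1 and 23.3 CPM in the MOET livers. All IVP livers lay above all MOET livers, and the liver of calf 5841 was far above the rest (log2 fold change 1.02 ± 0.31 SE, edgeR FDR = 0.126). PSMB2, an inner ring subunit without a catalytic site, was at 45.0, 51.4, 49.1 and 84.5 CPM in IVP against 34.5, 33.9, 36.9 and 34.2 CPM in MOET livers. The groups were again apart, with calf 5841 highest (0.67 ± 0.22, edgeR FDR = 0.127). PSMB10, which replaces a constitutive catalytic subunit in the immunoproteasome, had a log2 fold change of 0.89 ± 0.31.

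The 19S particle gave the same order of groups in 5 of 5 genes. PSMC3, an ATPase of its base, was at 68.8, 84.9, 80.4 and 148 CPM in IVP livers and at 50.5, 51.5, 55.3 and 48.4 CPM in MOET livers. PSMC1, a further ATPase of the base, was at 58.8, 69.0, 64.3 and 118 CPM and at 47.2, 45.8, 50.9 and 47.8 CPM. Neither gene overlapped between the groups (0.84 ± 0.26 and 0.64 ± 0.24, edgeR FDR = 0.126 and 0.136). The smallest liver fold change of the proteasome genes with a role belonged to PSMD9, a chaperone that helps to build the base, at 0.34 ± 0.14.

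Among activator and assembly chaperones, PSME1, a subunit of the interferon-inducible PA28 cap, was at 72.6, 74.3, 79.2 and 102 CPM in IVP livers and at 55.4, 50.1, 62.7 and 52.9 CPM in MOET livers. The groups did not overlap (0.54 ± 0.16, edgeR FDR = 0.125). PSMG3, which pairs with PSMG4 in building the outer ring, was at 7.34, 10.3, 7.56 and 19.1 CPM against 4.69, 4.88, 5.83 and 4.21 CPM. PSMG4 itself was at 31.5, 39.5, 38.3 and 102 CPM against 22.0, 20.8, 26.5 and 25.0 CPM. Both partners were higher in every IVP liver (1.08 ± 0.35 and 1.05 ± 0.40, edgeR FDR = 0.127 and 0.136), with calf 5841 farthest above its group in each. PSMG2, of the other chaperone pair, was at 11.6, 11.5, 11.9 and 15.6 CPM against 9.13, 8.55, 10.4 and 8.37 CPM, again without overlap (0.44 ± 0.16).

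Over the 20 proteasome members, all 4 IVP livers lay above the livers of the 3 separate MOET calves for 19 genes, against 17.2% of all genes tested, and below them for 1, against 16%. That gene was PSMC3IP, which shares only the start of its symbol with the proteasome and encodes a factor of meiotic recombination. The other gene of this kind, PSME3IP1, was higher (0.45 ± 0.16). All members but PSME3IP1 had been named by tables picked from these same livers. The count of 19 is thus a description, and no excess over the share of all genes can be read from it.

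Calf 5841 set much of the size of these differences, but not their direction. It had the highest liver value of all 8 calves in 19 of 20 proteasome members. Over the 18 with a role, its level was 1.83 times the median of the other 3 IVP livers (1.23 to 2.66 times). Without this calf the median log2 fold change of the proteasome members was 0.45, 19 of 20 stayed positive, and edgeR called 12 proteasome and 8 ubiquitin members, with 8.41% of all genes tested called in place of 0.035%. Without calf 3213, with the age term kept, edgeR called 15 and 11, with 15.2% of all genes. The calls thus became more frequent over all genes in both cases. Without calf 3213 and without the age term, edgeR called 0 members (0.0347% of all genes). Calf 5841 was also the youngest, at 98 days, and what the age term takes from its values was not tested. Leaving out calf 3208 left 1 call, FBXO30 (0.699% of all genes), and leaving out any of the others gave 0 (at most 0.0207%).

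The conjugating enzymes mostly shared the direction of the proteasome, with 7 of 9 higher in IVP livers and a median log2 fold change of 0.39. UBE2T, which attaches ubiquitin in DNA crosslink repair, was at 7.54, 8.08, 7.45 and 11.5 CPM in IVP livers and at 5.18, 4.98, 5.76 and 4.87 CPM in MOET livers. UBE2E2 was at 6.98, 8.70, 5.47 and 9.17 CPM against 4.69, 3.87, 5.38 and 4.90 CPM. Both kept the groups apart, the second by a narrow gap (0.70 ± 0.19 and 0.66 ± 0.22, edgeR FDR = 0.125 and 0.127). UBE2F, which conjugates NEDD8 to cullins, and UBE2G2, of the degradation of endoplasmic reticulum proteins, had log2 fold changes of 0.65 ± 0.22 and 0.58 ± 0.22. The exceptions were UBE2D1, a broadly used E2, at -0.59 ± 0.20, and UBE2H at -0.64 ± 0.21. UBE2H was at 15.4, 9.97, 12.0 and 7.68 CPM in IVP livers and at 17.0, 18.6, 16.1 and 18.2 CPM in MOET livers, so every IVP liver was below every MOET liver.

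F-box proteins were lower in 6 of 9 cases in IVP livers, and the lowest log2 fold change of any member was in this role. FBXO30, a ligase subunit known from muscle atrophy, was at 4.00, 2.48, 2.77 and 1.44 CPM in IVP livers and at 6.38, 7.70, 5.50 and 7.77 CPM in MOET livers. FBXO33 was at 2.11, 2.20, 1.87 and 0.897 CPM against 3.55, 4.23, 3.35 and 4.54 CPM. Every IVP liver was below every MOET liver in both genes, and calf 5841 was lowest (-1.37 ± 0.30 and -1.17 ± 0.29, edgeR FDR = 0.125 for both). FBXW4 went the other way, at 0.38 ± 0.15.

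Deubiquitinases were lower in 9 of 11 cases, with a median log2 fold change of -0.30. USP45, which acts on a DNA repair nuclease, was at 0.780, 0.619, 0.504 and 0.351 CPM in IVP livers and at 1.26, 1.51, 1.06 and 1.43 CPM in MOET livers. USP9X, a large enzyme with many substrates, was at 40.7, 34.8, 36.6 and 29.4 CPM against 51.1, 58.8, 48.1 and 47.8 CPM. USP24 was at 10.5, 7.70, 8.28 and 4.37 CPM against 14.1, 18.1, 11.5 and 16 CPM. In all of these every IVP liver was below every MOET liver (-1.22 ± 0.30, -0.55 ± 0.14 and -0.96 ± 0.27, edgeR FDR = 0.125 for each). USP32 and USP54 were also lower (-1.05 ± 0.33 and -0.92 ± 0.33), while USP20 and USP47 had small positive values (0.16 ± 0.12 and 0.06 ± 0.12).

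The 2 UBE3 ligases among the members differed in direction. UBE3C, which binds the proteasome and lengthens ubiquitin chains on it, was at 21.4, 19.7, 17.9 and 18.2 CPM in IVP livers and at 24.1, 23.6, 23.8 and 24.7 CPM in MOET livers. UBE3D was at 1.75, 1.65, 2.20 and 2.73 CPM against 1.36, 1.24, 1.29 and 1.52 CPM. UBE3C was thus lower and UBE3D higher in all IVP livers (-0.32 ± 0.11 and 0.59 ± 0.24, edgeR FDR = 0.129 and 0.154). Over the 32 ubiquitin members the IVP livers lay wholly above the separate MOET livers in 10, against 17.2% of all genes tested, and wholly below in 16, against 16%. Most of these members had been named by tables picked from these same livers, so the counts are descriptions. Of the 6 that no liver expression table held here had named, 1 lay wholly above and 1 wholly below, and 0 had an unadjusted edgeR p under 0.05.

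The contrast between the families was visible in each calf. The mean log2 CPM of the 18 proteasome genes was 5.27, 5.50, 5.41 and 6.28 in the IVP livers and 4.87, 4.81, 5.06 and 4.85 in the MOET livers. The same mean over 31 ubiquitin genes was 3.26, 3.12, 3.14 and 2.96 in IVP and 3.31, 3.37, 3.31 and 3.37 in MOET livers. Every IVP liver was thus above every MOET liver for the proteasome and below for the ubiquitin genes. Most of these genes were picked for a difference between these same livers, so this separation is a description. By role, the means of F-box proteins and deubiquitinases were lower in IVP livers and those of ligases overlapped. The conjugating enzymes went the other way, at 3.90 to 4.11 in IVP and 3.68 to 3.82 in MOET livers. The proteasome mean minus the ubiquitin mean was 2.50 ± 0.57 over the IVP livers (SD, n = 4) and 1.56 ± 0.17 over the MOET livers (SD, n = 3). Summed over the 18 genes, the proteasome took 838.7 to 1730 CPM in IVP and 608.7 to 721.9 CPM in MOET livers.

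Between the 2 IVP and 2 MOET calves of the same dam and sire, most liver directions were those of the full comparison, with USP2 and USP47 turned (0.04 and -0.03). Of 20 proteasome members 19 were higher in IVP (median log2 fold change 0.39) and of 32 ubiquitin members 19 were lower (median -0.18), with 0 members called by edgeR, against 0.132% of all genes. The summed levels of cell type markers did not overlap between the groups of livers either. These markers could be named only through the same tables of genes picked for a difference with embryo origin. The separation of their sums is therefore a description and does not show a shift in cell types. The 4 named hepatocyte markers summed to 6900 to 8720 CPM in IVP and 5370 to 5670 CPM in MOET livers, with single markers in opposite directions: APOA1 was at 433 to 984 against 160 to 288 CPM, and APOB at 508 to 753 against 978 to 1150 CPM. The 3 of 8 macrophage markers that could be named (C1QA, C1QB and CSF1R) summed to 901 to 1600 CPM in IVP and 666 to 828 CPM in MOET livers. The 4 of 6 markers of stellate cells and fibroblasts that could be named (COL1A1, COL1A2, COL3A1 and DCN) summed to 396 to 523 CPM in IVP and 626 to 660 CPM in MOET livers, and the 2 of 5 of endothelium (CDH5 and VWF) to 61.0 to 75.4 and 78.6 to 98.5 CPM. None of these markers was at 0 in liver, and their part in the differences of the members was not tested.

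**Figure D2:**
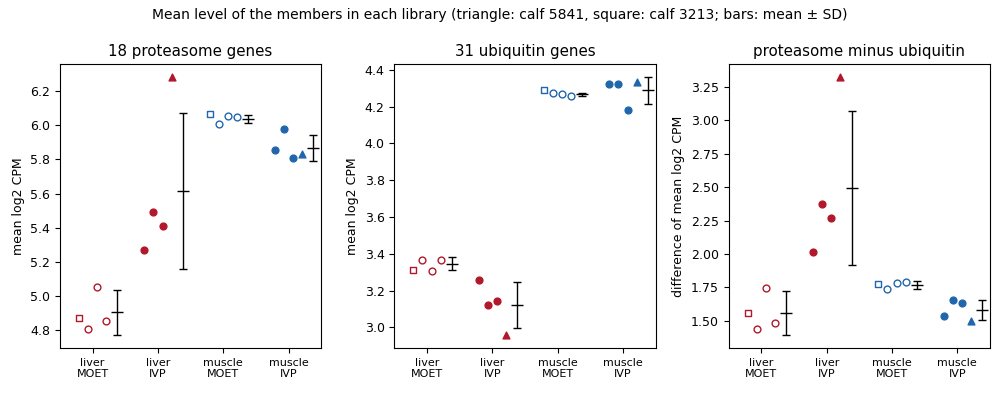
Mean log2 CPM of 18 proteasome genes, of 31 ubiquitin genes and their difference in each library, with black bars for the mean ± SD over 4 IVP calves and 3 MOET calves (calf 3213, a square, is not in the mean). IVP livers are above MOET livers for the proteasome and below them for the ubiquitin genes, with calf 5841 (triangle) farthest out, and in muscle the differences are smaller.

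In muscle, 1 member changed with embryo origin, the deubiquitinase USP2, which is known as a clock-controlled gene. USP2 was at 62.5, 63.3, 75.5 and 74.7 CPM in the IVP muscles and at 41.9, 42.7, 41.4 and 41.0 CPM in the MOET muscles. The spread within MOET was small beside the gap between the groups. USP2 was 1.68-fold higher in IVP (log2 fold change 0.74 ± 0.11 SE, edgeR FDR = 0.0241), with means of 69.0 ± 7.0 CPM (SD, n = 4) and 41.7 ± 0.90 CPM (SD, n = 3). The call was lost without calf 3217, 3218, 5841 or 5932 and between the calves of the same dam and sire, and over 15 settings the log2 fold change ranged from 0.60 to 0.80 and the FDR up to 0.180. USP2 was 1 of 51 members tested (FBXO2 was below the count filter in muscle), and 0.467% of the 12854 genes tested were called.

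Proteasome members in muscle were mostly lower in IVP, the reverse of liver, and by less. Of 20 members 17 had negative log2 fold changes, with a median of -0.15 against 0.02 over all genes tested, and none had an FDR under 0.05. With an unadjusted p under 0.05 there were 3, all lower, and over all members 13, against 19.8% of all genes tested. The 17 proteasome members that no muscle table held here had named gave 14 lower and 3 higher, also with a median of -0.15. The study's list of genes that differ in expression in muscle was not among these tables. Some of the 17 may have been picked there, so their count is a description too. DESeq2's Wald test called 1 proteasome member with age, PSMG4, and 3 without it, where 3.62% and 12.6% of all genes were called.

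PSMG4 came nearest to the threshold in edgeR, with an FDR of 0.0575. It was at 32.2, 30, 29.0 and 29.6 CPM in the IVP muscles and at 43.5, 38.8, 45.1 and 43.8 CPM in the MOET muscles, without overlap (-0.47 ± 0.09). PSMD9 was at 10.2, 11.2, 11.3 and 11.8 CPM against 14.8, 14.5, 13.9 and 15.4 CPM. PSMB6, the caspase-like site of the core, was at 74.3, 77.3, 67.9 and 73.4 CPM against 88.4, 83, 86.9 and 89.6 CPM. All IVP muscles were below all MOET muscles in both (-0.37 ± 0.11 and -0.22 ± 0.09, edgeR FDR = 0.125 and 0.228). PSMB1, of the inner ring, was at 78.4, 84.6, 73.6 and 78.9 CPM against 92.5, 86.8, 93.9 and 91.3 CPM. PSMD4, a ubiquitin receptor of the 19S particle, was at 107, 129, 105 and 105 CPM against 129, 131, 127 and 121 CPM, where calf 3209 reached into the MOET range (-0.16 ± 0.11). PSMG3 overlapped between the groups, at 8.86, 10.2, 9.44 and 8.44 CPM against 10.5, 9.93, 10.2 and 10.5 CPM (-0.12 ± 0.12).

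The 4 IVP muscles lay below the 3 separate MOET muscles in 8 proteasome members, against 9.55% of all genes tested, and above them in 0, against 9.65%. Among the 8 were PSMB1, PSMB3 and PSME3IP1, which a muscle table picked from these libraries had named. Of the 17 members that no muscle table held here had named, 5 lay below and 0 above, which is a description for the same reason. The mean log2 CPM of the 18 proteasome genes was 5.85, 5.98, 5.81 and 5.83 in the IVP muscles and 6.07, 6.01, 6.05 and 6.05 in the MOET muscles. The IVP muscles were lower in each case, with 5.87 ± 0.07 (SD, n = 4) against 6.04 ± 0.02 (SD, n = 3).

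Ubiquitin members showed no common direction in muscle, with 16 higher, 15 lower and a median of 0.02. Deubiquitinases were higher in 8 of 11 cases, and conjugating enzymes lower in 7 of 9. UBE2H was at 17.1, 15.8, 16.8 and 15.1 CPM in IVP and at 12.9, 13.8, 12.9 and 11.6 CPM in MOET muscles, without overlap (0.37 ± 0.11, edgeR FDR = 0.120).

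Of the F-box proteins in muscle, FBXO40, which is specific to striated muscle and acts on the insulin receptor substrate IRS1, was at 42.8, 33.8, 41.8 and 41.6 CPM in IVP and at 31.5, 30.2, 34.1 and 29.7 CPM in MOET. Calf 3209 lay inside the MOET range and the other IVP calves above it (0.37 ± 0.11, edgeR FDR = 0.126). FBXO9 was at 58.0, 76.8, 52.6 and 61.3 CPM against 86.1, 84.4, 93.7 and 76.7 CPM, where the same calf touched the lowest MOET value (-0.43 ± 0.13, edgeR FDR = 0.124). USP24 was at 14.9, 13.3, 16.4 and 18.1 CPM against 11.4, 11.5, 11.2 and 11.5 CPM. Its groups did not overlap (0.47 ± 0.13, edgeR FDR = 0.109). A muscle table picked from these libraries had named FBXO40, FBXO9 and USP24, so their values are descriptions.

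Some marker levels lay apart between the groups in muscle, and others overlapped. The markers could again be named only through tables of genes picked from these libraries, so those lying apart are a description. MYH7, MYH2, the fibroblast and endothelium sums and, by a narrow gap, MYLPF lay apart. TNNT3, ACTA1 and the macrophage sum overlapped. Fast fibre markers did not share a direction. TNNT3 and MYLPF were at 10400 to 19000 and 7410 to 15300 CPM in IVP and at 18600 to 19300 and 15500 to 17100 CPM in MOET muscles. MYH2, also a fast myosin, was higher in IVP, at 14900 to 20700 against 8860 to 10700 CPM. The slow myosin MYH7 was at 6360 to 18200 CPM in IVP and 2340 to 4950 CPM in MOET. ACTA1, the skeletal actin, was at 87500 to 136000 and 122000 to 144000 CPM. The named fibroblast markers summed to 1020 to 1470 CPM in IVP and 1650 to 2040 CPM in MOET muscles, those of endothelium to 108 to 172 and 90.1 to 101 CPM, and those of macrophages to 20 to 53.2 and 28.7 to 39.1 CPM. The part of fibre type and of these cells in the values of USP2 and the proteasome was not tested.

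**Figure D3:**
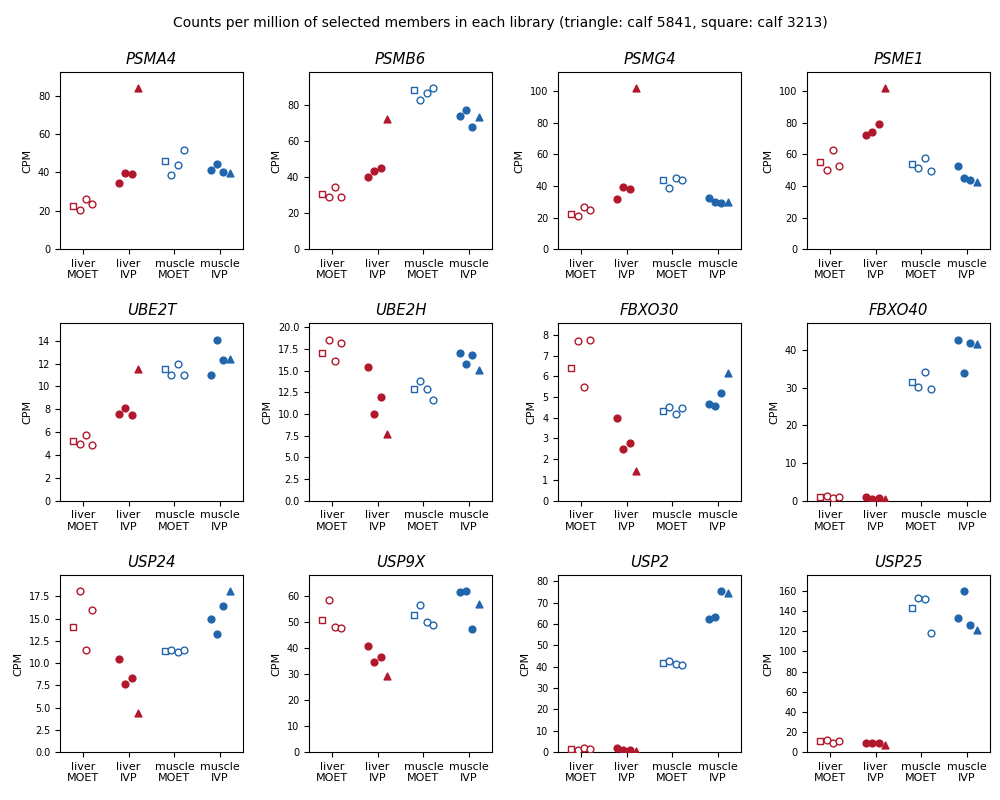
CPM of 12 members in the 16 libraries by organ and group, on linear axes from 0 (filled: IVP, open: MOET, triangle: calf 5841, square: calf 3213). USP2 in muscle has 62.5 to 75.5 CPM in IVP and 41.0 to 42.7 CPM in MOET calves, PSMG4 is higher in IVP liver and lower in IVP muscle, and FBXO30 is lower in every IVP liver.

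The effect of embryo origin was compared between the organs in 1 edgeR fit over the 16 libraries, as the log2 fold change in muscle minus that in liver. By sign alone, 17 of 20 proteasome members were higher in IVP liver and lower in IVP muscle, 1 was the reverse (PSMC3IP) and 2 were higher in both (PSMB10, whose muscle value ran from -0.009 to 0.16 over the alternatives, and PSMG2). Of the 31 ubiquitin members with a value for each organ, 10 had a positive liver and a negative muscle value, 14 the reverse, 2 higher in both and 5 lower in both. The organs differed in 16 members at an FDR under 0.05, against 8.99% of 15237 genes tested. Because the liver contrast that named most members is part of this difference, the count is a description.

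The 9 members with a negative difference were 7 of the proteasome list (PSMB2, PSMB6, PSMC3, PSMD9, PSME1, PSMG4 and PSME3IP1) with UBE2E2 and FBXW4. The 7 with a positive difference were all ubiquitin members (FBXO30, FBXO33, FBXO40, UBE2H, USP24, USP45 and USP9X). The largest were FBXO33 (1.81 ± 0.43), USP45 (1.61 ± 0.46), FBXO30 (1.57 ± 0.36) and, below 0, PSMG4 (-1.55 ± 0.42, edgeR FDR = 0.0340, 0.0451, 0.0335 and 0.0406). With a block for the calf, as each animal gave both organs, 6 members were called in place of 16: FBXO30, FBXO33, UBE2H, USP24, PSMD9 and PSMG4. The share of all genes called was then 4.68%. The count was 0 without calf 3209, 3217, 3218, 5833 or 5932, where at most 0.501% of all genes were called. It was 30 without calf 3208, 30 without calf 3213 and 22 without calf 5841, where 16.4%, 14.1% and 10.5% of all genes were called.

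FBXO30 showed the pattern in single values: it was at 4.66, 4.55, 5.21 and 6.15 CPM in IVP muscles and at 4.32, 4.51, 4.17 and 4.46 CPM in MOET muscles. The IVP muscles were thus slightly above the MOET muscles, while the IVP livers were well below. FBXO33 was at 1.50, 1.03, 0.944 and 1.51 CPM in IVP and at 0.766, 0.797, 0.650 and 0.892 CPM in MOET muscles, also in the opposite order to liver. PSMD9 had livers at 12.9, 13.3, 13.8 and 16.3 CPM in IVP and 11.0, 9.86, 12.0 and 10.9 CPM in MOET, so its order too was turned between the organs.

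**Figure D4:**
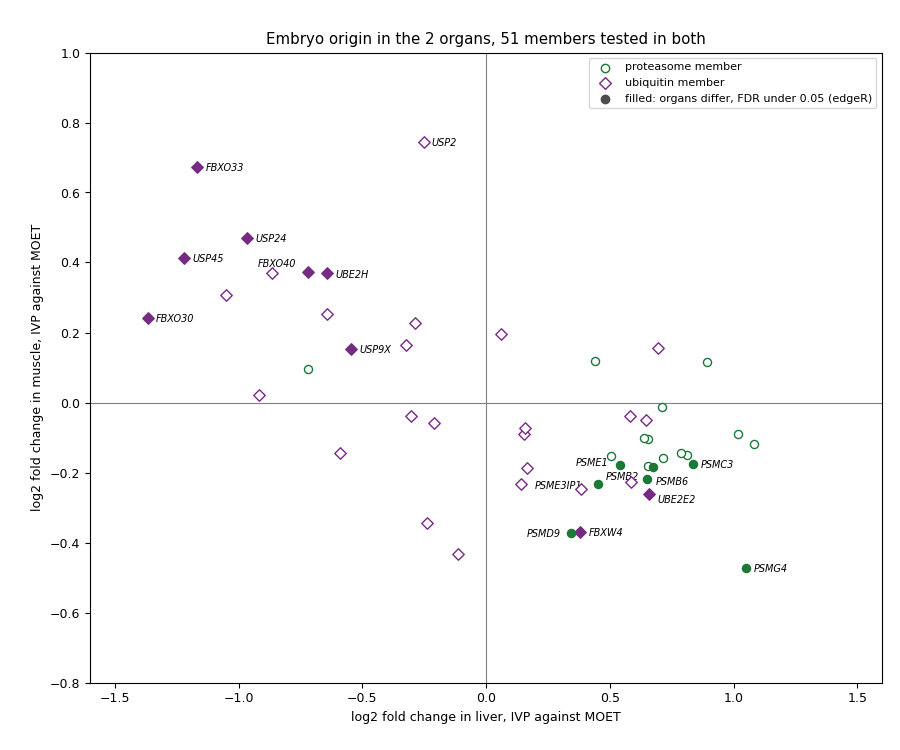
Log2 fold change of IVP against MOET calves, with liver on the horizontal axis and muscle on the vertical axis, for the 51 members tested in both, with proteasome members as green circles and ubiquitin members as purple diamonds. Filled points are the 16 members whose organs differed at an FDR under 0.05 (edgeR without the block), of which 9 are at the lower right and 7 at the upper left.

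Muscle was also compared with liver over all 8 calves, a contrast that the tables naming the members had not used. Of 52 members 37 differed at an FDR under 0.05 in edgeR: 29 were higher in muscle, against 38.7% of all genes tested, and 8 were lower, against 43.7%. The median log2 difference of the members was 0.47 and that of all genes -0.09. Of the 29 higher members, 22 were higher in 8 of 8 calves. With the calf as a block 40 members were called, 33 higher and 7 lower, and 81.5% of all genes in either direction against 82.4% without the block.

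Proteasome members were mostly higher in muscle, with 10 called higher and 1 lower. In the 19S particle 4 of 5 were higher: PSMC3 by 1.80 ± 0.15, PSMC1 by 1.46 ± 0.14, PSMD4 by 1.18 ± 0.15 and PSMD7, a lid subunit, by 1.11 ± 0.16 on the log2 scale. PSMC3 was at 230, 279, 202 and 215 CPM in the IVP muscles and at 270, 275, 276 and 245 CPM in the MOET muscles. Every muscle library was above every liver library of this gene. In the 20S core 4 of 9 were higher, PSMB5 by 1.50 ± 0.12, PSMB6 by 1.0 ± 0.12, PSMB4 by 0.97 ± 0.13 and PSMB3 by 0.96 ± 0.14, while PSMA4, PSMA7, PSMB1, PSMB2 and PSMB10 did not pass (0.32, 0.32, 0.26, -0.04 and -0.36). Of the chaperones PSMG2 was higher by 1.21 ± 0.11, with muscles at 27.3, 22.6, 22.1 and 31.1 CPM in IVP and 24.1, 21.4, 23.7 and 26.5 CPM in MOET. The 1 member lower in muscle was PSME1, by -0.46 ± 0.10 (edgeR FDR = 0.000383), with muscles at 52.4, 44.9, 43.8 and 42.5 CPM in IVP and 53.6, 51.3, 57.4 and 49.6 CPM in MOET, lower than liver in 7 of 8 calves.

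The ubiquitin members spread much more widely between the organs, from -2.16 to 5.44, against -0.46 to 1.80 for the proteasome. FBXO40 was at 0.877, 0.447, 0.756 and 0.429 CPM in IVP livers and at 1.02, 1.31, 0.805 and 1.02 CPM in MOET livers, against 29.7 to 42.8 CPM in muscle. It was thus 43.5-fold higher in muscle (5.44 ± 0.15 on the log2 scale, edgeR FDR = 1.45e-14). USP2 was at 1.88, 1.07, 1.08 and 0.663 CPM in IVP livers and at 1.30, 1.02, 1.83 and 1.40 CPM in MOET livers, 41.5-fold below muscle (5.38 ± 0.18). UBE2D1 was at 3.57, 3.30, 3.38 and 2.11 CPM in IVP livers and 4.50, 4.68, 4.80 and 4.54 CPM in MOET livers. Its muscles were at 53.5, 75.9, 61.3 and 72.2 CPM in IVP and 74.2, 71.2, 74.0 and 75.0 CPM in MOET, a 18.4-fold difference (4.20 ± 0.13). All muscle libraries were above all liver libraries in each of these genes.

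Other deubiquitinases higher in muscle were USP25, of which a muscle isoform is known, by 3.85 ± 0.11, USP47 by 2.55 ± 0.10, USP54 by 1.63 ± 0.18 and USP15 by 1.14 ± 0.09, and 7 of 11 were higher in all. Both UBE3 ligases among the members were higher, UBE3C by 2.18 ± 0.09 and UBE3D by 2.03 ± 0.15. UBE3C was at 119, 102, 85.8 and 104 CPM in IVP and 94.1, 99.6, 91.6 and 86.9 CPM in MOET muscles, and UBE3D at 6.27, 5.37, 5.26 and 8.35 CPM and at 7.39, 6.90, 7.74 and 7.56 CPM. Of the conjugating enzymes 7 of 9 were higher, from UBE2Q1 (0.23 ± 0.07) to UBE2D1, and UBE2F and UBE2H did not pass (-0.08 and 0.04). FBXO30 did not differ detectably either (0.15 ± 0.18), although it belongs to the ligases known from muscle atrophy.

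Lower in muscle were 7 ubiquitin members, 4 F-box proteins among them. USP6NL, which shares only its symbol's start with the deubiquitinases and regulates Rab GTPases, was at 4.06, 2.34, 3.17 and 1.01 CPM in IVP livers and at 4.07, 5.37, 4.44 and 4.93 CPM in MOET livers. Its muscles were at 0.725, 0.759, 1.21 and 0.918 CPM in IVP and 0.0547, 0.531, 0.920 and 0.610 CPM in MOET (-2.16 ± 0.27, edgeR FDR = 1.9e-06). FBXO4 was at 6.89, 7.74, 8.03 and 7.92 CPM in IVP livers and 6.88, 6.09, 7.53 and 6.78 CPM in MOET livers, with muscles at 1.92, 1.57, 1.57 and 2.16 CPM and at 1.97, 1.81, 1.79 and 2.21 CPM. Every liver was above every muscle library of FBXO4 (-1.94 ± 0.12, edgeR FDR = 2.18e-10). FBXO33 (-1.42 ± 0.21), FBXO9 (-0.65 ± 0.09), FBXO2, which recognises glycoproteins (-0.61 ± 0.24), USP45 (-0.56 ± 0.23) and USP20 (-0.23 ± 0.07) were the others. FBXO2 and USP45 rested on under 1 CPM in most libraries, and their edgeR FDR (0.0251 and 0.0316) passed in 9 and 11 of 16 settings, reaching 0.0908 and 0.124 in the rest.

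**Figure D5:**
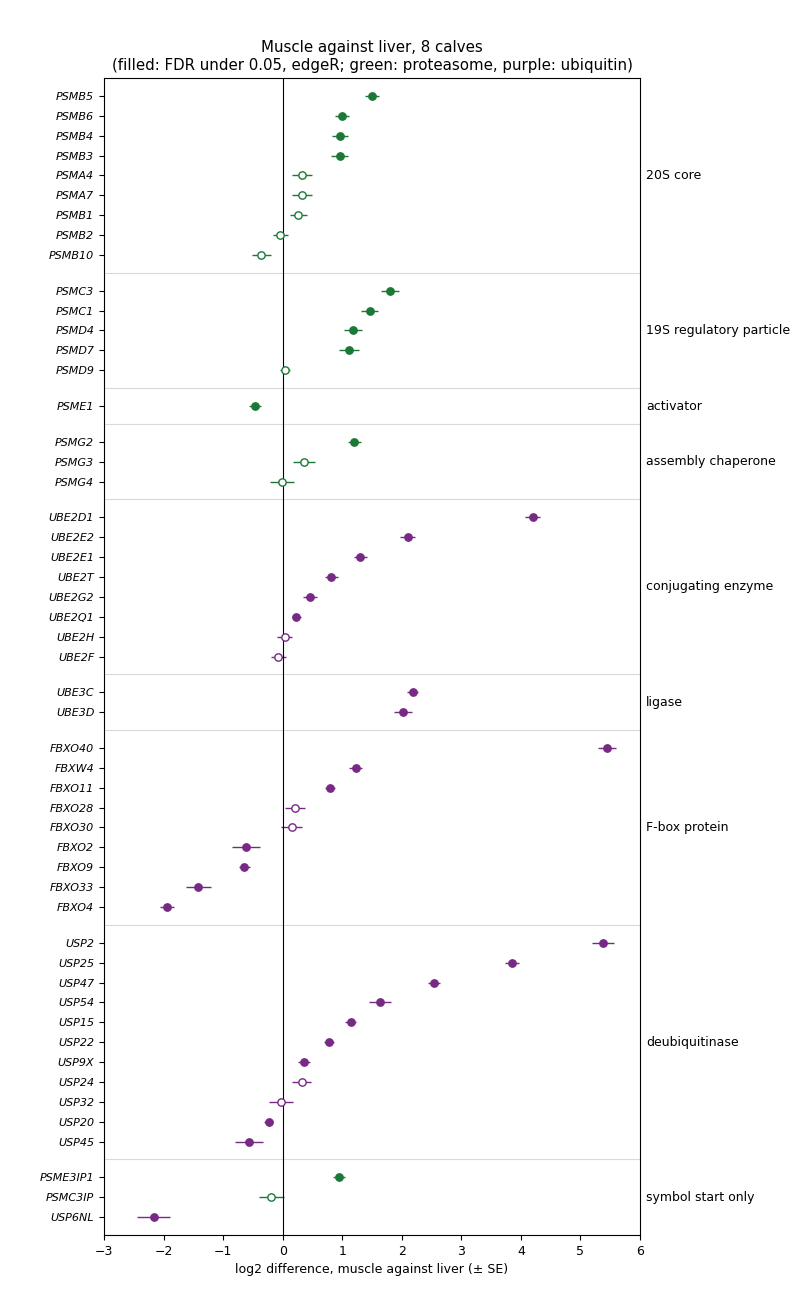
Log2 difference (± SE) between muscle and liver for 51 of the 52 members by role, over 8 calves, from edgeR. Proteasome members (green) lie between -0.46 and 1.80 and ubiquitin members (purple) between -2.16 and 5.44, with FBXO40, USP2 and UBE2D1 farthest to the right.

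Other genes of the pathway could be named only in part, and none of those named passed an FDR of 0.05 between IVP and MOET in either organ in edgeR. The same tables named them, so their values are descriptions too. Of the genes that encode ubiquitin, RPS27A, which makes ubiquitin fused to a ribosomal protein, had log2 fold changes of 0.73 in liver and -0.16 in muscle. Of the 2 activating enzymes UBA6 had -0.48 and 0.17. Of the shuttle and unfolding factors, UFD1 had 0.54 in liver, UBQLN1 -0.65 and NPLOC4 0.02. ADRM1, a ubiquitin receptor of the 19S particle, had 0.57 in liver and -0.09 in muscle, and PSMF1, an inhibitor of the proteasome, 0.39 and -0.17. Of 8 scaffolds of cullin ligases CUL1 and CUL2 had 0.12 and -0.22 in liver. Of 7 ligases of muscle atrophy only FBXO30 and FBXO40 were named, and of 4 regulators of proteasome genes and 2 proteasome-bound deubiquitinases none.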

How the data were processed

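Per the labels and methods, the authors removed adapters with SOAPnuke, mapped nonstranded poly(A) RNA-seq pairs to bosTau9 with STAR 2.7 and estimated counts per gene with HTSeq. The deposited values are estimated counts for 27607 Ensembl IDs in 16 libraries, all whole numbers, so rounding changed none; 0 other value columns were present. CPM used TMM factors over 16 libraries, and log2 CPM a prior count of 2. edgeR 4.0.16 quasi-likelihood tests (R 4.3.3; filterByExpr with a minimum count of 10; Benjamini-Hochberg adjustment over all genes tested; 2-sided) were fitted per organ to group and age, and over 16 libraries to 4 group means and 1 age slope per organ. The authors controlled age with sva, and whether the deposited counts already carry that adjustment is not given in the sources used here; the age term was kept. DESeq2 1.42.0 served for alternatives. All replicates are separate calves, but the counts of calf 3213 lie at the mean of the other MOET calves and the fits count it as a replicate; without it and without age, edgeR called 0 members in liver.

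Members and lists were chosen with earlier results of these data known. Names came from the study's gene tables, which were held in part, and RefSeq was used for symbols only. Values in every library are given, except for some genes not reported here by name, per role and organ for the 2 members with the lowest p, those with FDR under 0.05, the 3 most positive and 3 most negative between organs, and the 5 with the lowest p in the difference between organs. Both libraries of a calf share the animal, which is the pairing used as a block. A calf's deviations correlated between its organs at -0.106 to 0.254, above 0.1 in 2 of 8 calves.

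In counts simulated on these libraries with 200 genes changed by 1 log2 unit, edgeR called 75 of 197 in liver (14290 genes tested), 138 of 197 in muscle (12854), 162 of 199 for muscle against liver and 33 of 199 for the difference between organs (15237 each). The share of calls that were false was 10.8% in the last. Methylation data were not used here. Genes with close copies (such as USP9X, which has a copy on the Y chromosome) and overlapping genes may share reads.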

Additional observations from a re-analysis of the deposited data

Results flagged for a closer look

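In groups of 4 libraries the highest or lowest value stood apart from the others (Dixon's test at its 95% critical value) in 11 of 58 groups examined, where chance flags about 1 in 20 groups, which would be 2.9. In the IVP livers this was calf 5841 in each case, with the highest value of its group for PSMA4 (83.9 CPM), PSMB1 (138 CPM), PSMB2 (84.5 CPM), PSMB6 (72.2 CPM), PSMD4 (109 CPM), PSMG2 (15.6 CPM), PSMG4 (102 CPM) and UBE2T (11.5 CPM). In the IVP muscles it was calf 3209, high for PSMC1 (188 CPM) and PSMD4 (129 CPM) and low for FBXO40 (33.8 CPM). The groups share calves, so these are not separate events.

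The IVP against MOET difference was not the same in muscle and liver for 16 members at an FDR under 0.05 (edgeR, muscle minus liver on the log2 scale). The values above 0 were 1.81 for FBXO33, 1.61 for USP45, 1.57 for FBXO30, 1.40 for USP24, 1.05 for FBXO40, 0.98 for UBE2H and 0.67 for USP9X. Those below 0 were -1.55 for PSMG4, -1.04 for PSMC3, -0.95 for UBE2E2, -0.90 for PSMB6, -0.89 for PSMB2, -0.78 for FBXW4, -0.75 for both PSME1 and PSMD9, and -0.72 for PSME3IP1. With the calf as a block 6 of these were called.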

How the results depend on the processing

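Of 626 gene values over the 41 gene and contrast pairs that the naming rule chose, none was reversed, 517 kept direction and side of the threshold, 79 passed it newly and 30 lost it. Over all members the sign turned in at least 1 alternative for 2 in liver, 8 in muscle, 6 between the organs and 0 in the difference between the organs. Among these were USP47 (-0.03 to 0.11) and USP2 (-0.59 to 0.04) in liver, PSMB10 in muscle (-0.009 to 0.16), and FBXO30 (-0.04 to 0.30), UBE2H (-0.05 to 0.11), UBE2F (-0.14 to 0.03) and PSMB2 (-0.08 to 0.07) between the organs. In liver the counts called were 0 proteasome and 0 ubiquitin members, and became 17 and 16 without the age term, 6 and 7 by DESeq2 with age, 19 and 23 by DESeq2 without age, and 0 to 15 and 0 to 11 with 1 calf left out. In muscle they were 0 and 1, and became 2 and 5 without age, 1 and 1 by DESeq2 with age, 3 and 7 by DESeq2 without age, and 1 and 1 without the count filter. With 1 calf left out they ranged from 0 to 1 and from 0 to 3, and were 0 and 0 between calves of the same dam and sire. The median log2 fold change in muscle became -0.090 for the proteasome between calves of the same dam and sire, and for the ubiquitin members ranged from -0.0014 to 0.073 with 1 calf left out.

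Members whose organs differed numbered 16, and 6 with the calf as a replicate block (both organs paired in 1 animal), 38 with 1 age term for both organs, 40 without age, 32 by DESeq2 and 0 to 30 with 1 calf left out. All genes called went with these counts, at 8.99%, 4.68%, 23.1%, 26.6% and 17.3%. The block changed no other count by over 1.5 times. Alternatives without calf 3213 and within parents were chosen after seeing the data. The depth of 22758137 counts or more left a few members near 1 CPM (PSMC3IP, FBXO2, USP45, and FBXO40 and USP2 in liver) with larger errors. With 4 IVP and 3 separate MOET calves, a count of 0 in liver does not show that members did not differ.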
